A study of Mus musculus with 42 samples.

Results

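Immunoprecipitated (IP) and input RNA from testes of HET mice were compared by m6Am-Exo-Seq, gene by gene, over 6 libraries, 3 of each kind. The 11386 genes with a deposited value of at least 10 in at least 3 of the 6 libraries were taken, of 27409 genes in the testes table. The other 16023 genes lay below that filter. Of the genes taken, 9536 were protein-coding. At the edge of the filter, Ebf3 and Comtd1 lay just inside, each with 10.2 as the value that decides it (the lowest of its highest 3), and Gm46440 and Gm48860 just outside at 9.83.

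N6,2′-O-dimethyladenosine (m6Am) is the form that an adenosine takes when it is the first transcribed base of an mRNA, beside the cap, and carries both methyl groups. PCIF1 is the nuclear methyltransferase that puts the N6 methyl group there, and only on transcripts that start with adenosine. The internal mark m6A is made by another enzyme, the METTL3-METTL14 complex. The assay enriches capped 5′ ends of fragmented RNA and precipitates them with an antibody against m6A, which also binds m6Am. IP over input is meant to read how strongly the 5′ end of a transcript is held by that antibody. At which step the input was taken is not given in the sources used here. The ratio may therefore also hold steps before the antibody, which was not tested.

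The mice carried a Pcif1 allele made with Cas9, in a line with an 89 bp deletion between exon 15 and intron 16. Per the labels the lost bases include those for the catalytic motif, and translation then stops early. Founder embryos were of the B6D2F1/J hybrid line and founders were crossed to C57BL/6J. Group by group, there were 3 IP and 3 input libraries from testes of adult Pcif1 KO mice and 3 IP and 3 input libraries from testes of adult mice of genotype HET. In an animal of genotype HET 1 allele remains intact, so enrichment that depends on PCIF1 and enrichment that does not can both be present. No wild-type testis was put through this assay. All cells of the animals carried the alleles, and the tissue was whole testis. Nothing in the labels says that libraries of 1 group came from separate animals, so p-values measure the spread between these libraries, which may be technical.

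Total reads ran between 1816831 and 4364847 in the KO IP libraries and between 4151226 and 4971554 in the KO inputs, against 2689591 to 6574479 in the HET IP libraries and 4224175 to 4907380 in the HET inputs. Values are reads divided by a factor for each library, here called the signal, and they are not divided by gene length. The median SD of a gene over 3 libraries was 0.33 on the log2 scale for HET IP and 0.17 for HET input. The tissue label was checked with 10 lists of germ cell and somatic markers, of which 4 of 10 spermatogonia, 9 of 9 spermatocyte, 10 of 12 round spermatid and 8 of 11 elongating spermatid markers passed the filter. Spermatogonia markers summed to 355, 409 and 358 in HET IP and 266, 243 and 273 in HET input, Sertoli cell markers to 592, 629 and 717 in IP and 640.4, 562 and 593 in input, and epididymis markers to 3553, 5613 and 4187 in IP and 2254, 2687 and 2386 in input. Elongating spermatid markers summed to signals of 22833, 45209 and 27278 in HET IP and 15147, 16142 and 16850 in HET input, and macrophage markers to 19.4, 38.5 and 39.3 in IP and 45.1, 45.3 and 32.7 in input. Of the defining macrophage genes Adgre1 and Csf1r were at 0 in all inputs, as were Hbb-bs of blood and Crisp1 of epididymis. Of 8 epididymis markers 4 were in the testes table and 1 passed the filter, so the epididymis sum rests mainly on 1 gene. Pcif1 itself lay below the filter, with signals of 8.98, 0 and 6.31 in KO IP, 7.98, 6.75 and 1.64 in KO input, 1.49, 5.88 and 8.04 in HET IP and 5.53, 7.39 and 10.4 in HET input. Since the deletion is small, these gene totals check no label.

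The bases around the annotated start are shown for genes with some of the strongest enrichment and depletion, because the antibody's target m6Am can only sit on a first base that is A. They are from RefSeq on GRCm38.p6, 5′ to 3′ on the gene's own strand, with 10 bases before the start and 15 from it. The capital marks the annotated first transcribed base. For Spa17, Ccdc169 and Rpl10a RefSeq lists more than 1 start and the first listed is shown.
Fscb: ttgtcctaacAgaaacaaaccaaga
Tex13c1: tggcttttgcCagaaggaaggagaa
Enthd1: tggagatgaaTcatttgtgtttgag
Spa17: caagccttcaGtacgcgaaaccatc
Ccdc169: ctgtggacagGgatgttgtgcagct
Fam24b: catgtgcctcAgactaggggagaca
Among these enriched genes, the annotated start is A in Fscb and Fam24b, C in Tex13c1, T in Enthd1 and G in Spa17 and Ccdc169.
Rpl9: gggccctgacGgattacaagaacgt
Ngly1: gctcctcagcGcctgctcagtgcgg
Rps13: caaacgtcggTgagtggcgtcactt
Rpl10a: gcccccccagCggccgcaaactgca
Eef1a1: ctccgccctcTtcccgagggtgggg
Rpl4: tttcctgtggGagcagccgggtaga
Among the depleted genes the annotated start is G in Rpl9, Ngly1 and Rpl4, T in Rps13 and Eef1a1 and C in Rpl10a. A further ribosomal protein gene, Rps16, is shown for its depletion, and its annotated start is A.
Rps16: ttctgtcgtgAcgtagcactcaatg
Coordinates are chr12:64474884-64474908 (-) for Fscb, chrX:43590979-43591003 (+) for Tex13c1, chr15:80560456-80560480 (-) for Enthd1, chr9:37613707-37613731 (-) for Spa17, chr3:55142231-55142255 (+) for Ccdc169, chr7:131329485-131329509 (-) for Fam24b, chr5:65391417-65391441 (-) for Rpl9, chr14:16249304-16249328 (+) for Ngly1, chr7:116334176-116334200 (-) for Rps13, chr17:28328461-28328485 (+) for Rpl10a, chr9:78481710-78481734 (-) for Eef1a1, chr9:64173377-64173401 (+) for Rpl4 and chr7:28350679-28350703 (+) for Rps16.

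With limma on log2(signal + 1) and Benjamini-Hochberg adjustment at 0.05, 1802 of 11386 genes (15.8%) were enriched in the IP and 1897 (16.7%) were depleted, together 32.5% of all genes tested. Folds beyond 2 log2 units were more common among depleted genes: 187 genes (1.64%) fell by over 2 log2 units and 24 (0.211%) rose by over 2, while 1063 (9.34%) fell and 746 (6.55%) rose by over 1. The median log2 fold was 0.93 among enriched and -1.09 among depleted genes, and 0.02 over all genes, with an SD of 0.79 across genes. In 2687 genes (23.6%) every IP library lay above every input, and in 2725 (23.9%) every IP library lay below. Under scaling by library size the split was 1434 enriched and 2267 depleted, and the median of all genes moved to -0.08. Without 1 HET input library the calls numbered 2235 (replicate 1), 2270 (replicate 2) or 2262 (replicate 3) in place of 3699, and without HET IP replicate 3 the enriched genes numbered 1199.

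Calls grew with depth. With genes ranked by reads and put in 3 equal groups, in the group with the fewest reads, up to a mean of 39.8 per library, 8.02% were enriched and 12.4% depleted, with a median SE of 0.37. In the group with the most reads, 172.8 and above, 25.8% were enriched and 20.1% depleted, with a median SE of 0.17. A gene that passed the filter through 1 kind of library had little room to be otherwise: 125 genes had all 3 inputs below 10, with 77 enriched and 0 depleted, and 242 had all 3 IP libraries below 10, with 181 depleted and 0 enriched.

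**Figure D1:**
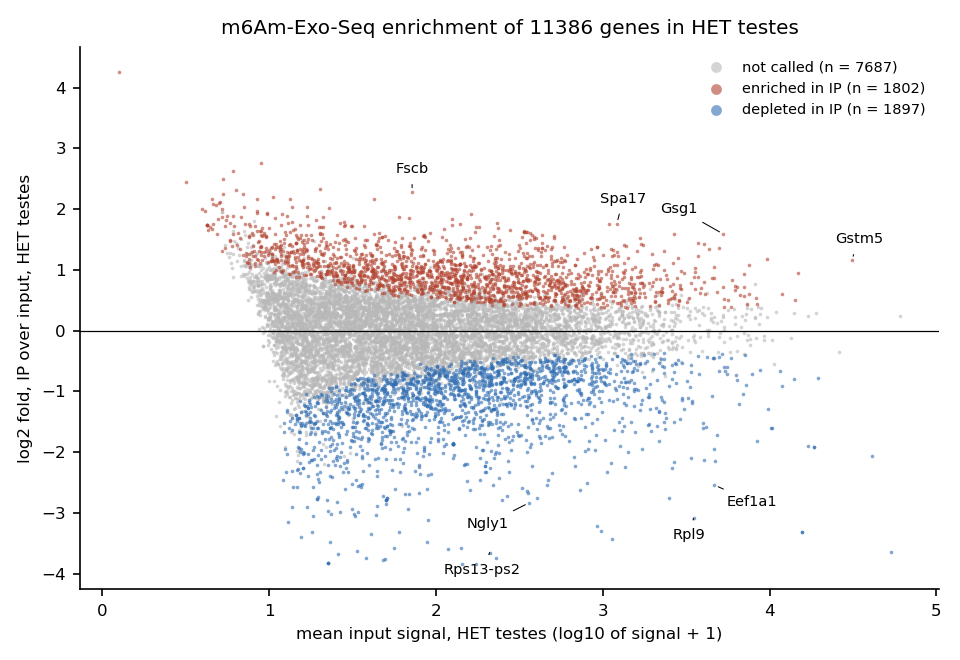
Log2 fold of IP over input in HET testes (vertical) against the mean input signal on a log10 scale (horizontal), 1 point per gene, with 1802 enriched genes in red, 1897 depleted in blue and 7687 not called in grey. Most called genes of either direction lie within 2 log2 units of 0, with 187 depleted and 24 enriched genes beyond.

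The most enriched and most depleted genes named were picked with a mean signal of at least 100 and no overlap between IP and input libraries. For them the lack of overlap was thus fixed in advance. Genes of the sperm tail were among the enriched ones. Fscb, a protein of the fibrous sheath around the sperm tail, had signals of 638, 232 and 285 in IP and 73.5, 73.9 and 65.3 in input. All IP libraries lay above all inputs, with IP replicate 1 well above the others, and the log2 fold was 2.28 ± 0.31 (SE), adjusted p = 0.000521 by limma. Tex13c1, an X-linked gene, had 310.3, 102 and 203 in IP and 34.0, 43.4 and 46.2 in input, a log2 fold of 2.16 ± 0.34 (SE), and again replicate 1 was the highest of the IP libraries. Spa17, a sperm surface and fibrous sheath protein that binds protein kinase A anchors, had 3928, 4214 and 4176 in IP against 1209.6, 1110.4 and 1319.9 in input. Its IP libraries were close together and the log2 fold was 1.76 ± 0.13 (SE), adjusted p = 1.68e-05 by limma.

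Enthd1, which encodes an ENTH domain protein, had 559, 377 and 412 in IP and 113, 138 and 122 in input, log2 1.83 ± 0.18 (SE). Ccdc169 had 4571, 2582 and 4226 in IP and 998, 1120.5 and 1165 in input, log2 1.75 ± 0.20 (SE). Fam24b had 546, 302 and 432 in IP and 119, 122 and 127 in input, log2 1.75 ± 0.21 (SE). In each the IP and input libraries were apart, by limma's adjusted p at most 0.000246. Gsg1, a germ cell protein that binds a testis poly(A) polymerase, had 16453, 16421 and 14689 in IP and 5022, 5019 and 5749 in input, a log2 fold of 1.59 ± 0.13 (SE). Enkur, an adaptor of sperm calcium channels and of the flagellum, had 1577, 1091 and 1186 in IP and 391, 439.7 and 455 in input, log2 1.57 ± 0.16 (SE). Cdyl, a chromodomain protein of spermatid chromatin, had 1460.4, 1052 and 913 in IP and 357, 393 and 376 in input, log2 1.58 ± 0.18 (SE). All 3 were enriched, with no overlap between the kinds of library by the naming rule.

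Genes of other kinds were among the strongest too. The adhesion protein p120 catenin, Ctnnd1, had 316, 253 and 238 in IP and 124, 61.0 and 86.8 in input, log2 1.61 ± 0.25 (SE). The zinc finger repressor Scrt1 had 257, 256 and 221 in IP and 90.1, 71.1 and 85.2 in input, log2 1.56 ± 0.17 (SE). Parathymosin, Ptms, a small acidic nuclear protein, had 240.2, 257 and 246 in IP and 83.8, 85.0 and 81.2 in input, log2 1.56 ± 0.16 (SE). Input libraries of Ptms differed by little and its IP libraries lay about as close together. The solute carrier Slc35g3 had 480.4, 874 and 655 in IP and 217, 209 and 236 in input, log2 1.56 ± 0.20 (SE).

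**Figure D2:**
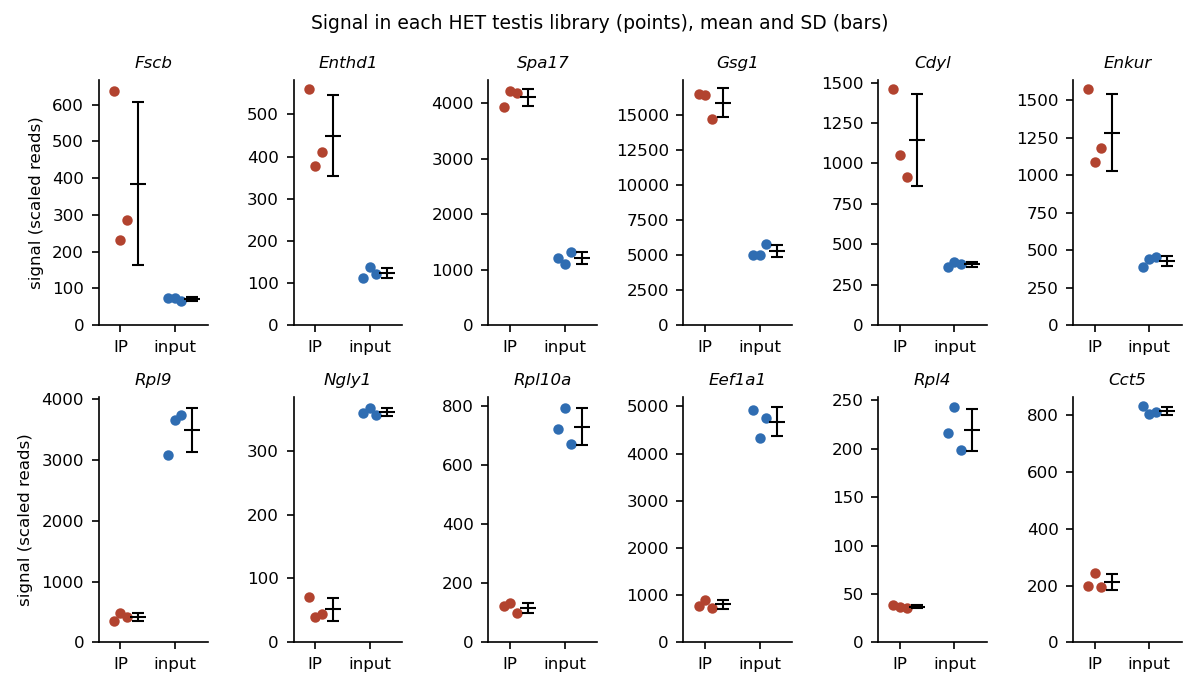
Signal of 6 enriched genes (top row) and 6 depleted genes (bottom row) in each HET testis library, IP in red on the left and input in blue on the right, with the mean and SD of 3 libraries in black. IP and input libraries do not overlap in any of the 12 genes, which was a condition for naming all of them but Cct5. The vertical axes start at 0 and differ between genes.

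Ribosomal protein genes were among the most depleted. Ribosomal proteins, the protein part of the small and large subunits, had 58 of 73 members depleted and 0 enriched, against 16.7% and 15.8% of all genes, and a median log2 fold of -1.29 against 0.02. Small subunit genes had 23 of 29 depleted with a median of -1.36 and large subunit genes 35 of 44 with a median of -1.17. Rpl9 had signals of 345, 479 and 415 in IP and 3086, 3666 and 3749 in input, a log2 fold of -3.09 ± 0.16 (SE), adjusted p = 3.06e-06 by limma. Rpl10a had 122, 132 and 98.3 in IP and 722, 794 and 669.9 in input, log2 -2.63 ± 0.16 (SE). All inputs of both genes were several times above all IP libraries. At an unadjusted p under 0.05 the counts were 62 depleted and 0 enriched, edgeR called 57 and 1, and DESeq2 58 and 1.

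Other ribosomal protein genes had the same direction at other levels. Rpl4 had 38.8, 36.6 and 35.7 in IP and 217, 243 and 199 in input, log2 -2.53 ± 0.18 (SE). Its IP libraries were all far below its inputs. Rpl8 had 86.5, 204 and 156 in IP and 797, 828 and 793 in input, log2 -2.51 ± 0.26 (SE), with IP replicate 1 the lowest. Replicate 1 was also the lowest IP library of Rps13, at 213, 400.3 and 574 in IP and 2550.4, 2425 and 2476 in input, log2 -2.76 ± 0.28 (SE). Rpl22 had 121, 79.0 and 94.7 in IP and 454, 452 and 587 in input, log2 -2.34 ± 0.20 (SE). Rps16, whose annotated start is A, had 37.3, 63.3 and 56.3 in IP and 217, 231 and 219 in input, log2 -2.10 ± 0.22 (SE). By library the median of the 44 large subunit genes was -1.43, -1.09 and -1.27 over the mean input, and that of the 29 small subunit genes -1.67, -1.15 and -1.34, so all 3 IP libraries held less of them.

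Reads of ribosomal protein genes can be shared with their pseudogenes, so both are uncertain as single genes. The pseudogene Rps13-ps2 had 11.9, 9.80 and 32.2 in IP and 219.8, 211 and 196 in input, log2 -3.65 ± 0.36 (SE). Rpl13-ps6 had 58.2, 65.3 and 54.5 in IP and 418, 385 and 406 in input, log2 -2.75 ± 0.16 (SE). Of 46 ribosomal protein pseudogenes by name, 38 were depleted and 0 enriched, with a median of -2.16, and edgeR and DESeq2 gave the same counts (41 and 0 at an unadjusted p under 0.05). Processed pseudogenes with other names had 132 of 425 depleted and 78 enriched, with a median of -0.06. Of all genes 16.7% were depleted and 15.8% enriched.

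Ribosomal protein mRNAs are known for a 5′ terminal oligopyrimidine start, a C followed by a run of pyrimidines. The letters searched were C at the first transcribed base and C or T at each of the next 4, on the gene's strand only. They are found at 2.47% of the 22862 genes with 1 start in the RefSeq table. Of 46 ribosomal protein members with 1 start, 12 held these letters, with 9 depleted and a median of -0.81. The other 34 had 29 depleted and a median of -1.59. Outside the ribosomal proteins 152 members held the letters, with 30 depleted (19.7%), 22 enriched (14.5%) and a median of 0.02. These shares are near the 16.7% and 15.8% of all genes. Of all 801 C starts without the letters, 20.1% were depleted and 12.1% enriched. Starts of A were annotated for 8 of the 46, starts of G for 14, of C for 17 and of T for 7. Only 17 of the 46 thus had the C that these mRNAs are known for. The starts used in testis may be other than those annotated, which was not tested, so the split by these letters is uncertain.

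Translation factors were called in both directions, as was the full set of genes tested (15.8% enriched, 16.7% depleted). Elongation factors and poly(A) binding proteins had 3 of 11 enriched and 3 depleted. Eef1a1, the factor that brings aminoacyl-tRNA to the ribosome, had 769.8, 905 and 738 in IP and 4924, 4327 and 4762 in input, log2 -2.54 ± 0.13 (SE). Eef2, the translocation factor, had 755, 694 and 581 in IP and 1789.9, 1556 and 1662 in input, log2 -1.31 ± 0.14 (SE). Both were depleted, Eef1a1 by more. Initiation factors had 9 of 33 depleted and 5 enriched with a median of 0.01, which was -0.08 under library-size scaling. Eif3h, a subunit of the scaffold factor eIF3, had 44.8, 121 and 122 in IP and 349, 352 and 351 in input, log2 -1.99 ± 0.33 (SE), with IP replicate 1 well under the others. Eif3b, another subunit, had 163, 172 and 118 in IP and 384, 350.1 and 375 in input, log2 -1.30 ± 0.18 (SE). Eif2b5, of the nucleotide exchange factor for eIF2, had 32.8, 33.3 and 38.4 in IP and 80.6, 62.8 and 86.0 in input, log2 -1.10 ± 0.22 (SE). In all 5 of these genes the inputs were above every IP library.

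Outside the ribosome, depleted genes were of several kinds. Ngly1, the cytosolic N-glycanase that strips sugars from misfolded proteins, had 71.6, 39.2 and 43.8 in IP and 358, 367 and 356 in input, log2 -2.83 ± 0.23 (SE), adjusted p = 3.31e-05 by limma. Brd7, a bromodomain subunit of a chromatin remodelling complex, had 37.3, 26.1 and 35.7 in IP and 184, 196 and 169.7 in input, log2 -2.45 ± 0.21 (SE). Sec61g, of the channel that passes proteins into the endoplasmic reticulum, had 29.8, 52.2 and 51.8 in IP and 221, 259 and 234 in input, log2 -2.43 ± 0.24 (SE). By the naming rule, none of the 3 had IP and input libraries that met. Among chaperones, 6 of 27 were depleted and 4 enriched, shares near the 16.7% and 15.8% of all genes, with a median of -0.04. Cct5, of the ring that folds actin and tubulin, had 199.9, 243 and 195 in IP and 830.1, 803 and 809 in input, log2 -1.94 ± 0.15 (SE). Dnajc5b, a testis J-domain protein, had 173, 129 and 166 in IP and 50.6, 50.8 and 66.1 in input, log2 1.46 ± 0.21 (SE). Libraries of neither gene overlapped between IP and input.

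Proteasome subunits had 5 of 31 depleted, near the 16.7% of all genes, and 3 enriched, with a median of -0.06. Psmd11 of the regulatory cap had 499.7, 529.6 and 439 in IP and 1542, 1544 and 1581 in input, log2 -1.67 ± 0.13 (SE). Psma7 of the core's alpha ring had 185, 278 and 202 in IP and 454, 554 and 485 in input, log2 -1.18 ± 0.18 (SE). Both were depleted without overlap. Psmb4 of the core's beta ring had 2473, 2560.0 and 2912 in IP and 1346, 1566 and 1514 in input, log2 0.84 ± 0.13 (SE). Its IP libraries were all above its inputs. Ubiquitin genes and conjugating enzymes had 2 of 16 enriched and 1 depleted, against 15.8% and 16.7% of all genes, with a median of 0.27.

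In the mitochondrial respiratory chain, complex I, which takes electrons from NADH, had 10 of 32 depleted and 2 enriched, against 16.7% and 15.8% of all genes, with a median of -0.32. Complexes II to V had 6 of 33 depleted, near the share of all genes, and 2 enriched, with a median of -0.19. Ndufb5 had 910.0, 665 and 1136 in IP and 2326, 2502 and 2319.6 in input, log2 -1.43 ± 0.18 (SE). Ndufa12 had 1362, 1387 and 1779 in IP and 3047, 3604 and 3579.7 in input, log2 -1.18 ± 0.15 (SE). Both were lower in every IP library than in any input. Atp5a1, the catalytic-ring alpha subunit of ATP synthase, had 80.6, 97.3 and 75.9 in IP and 281, 219 and 224 in input, log2 -1.50 ± 0.18 (SE). Unlike these, Uqcrb of complex III was enriched, with 903, 738 and 1028 in IP and 345, 431 and 486 in input, log2 1.08 ± 0.18 (SE). The chain's members thus differed among themselves. Without HET IP replicate 2 the median of complex I was -0.53. Glycolysis genes had 3 of 17 depleted and 2 enriched, with a median of -0.19. Pfkp, a phosphofructokinase, had 159.6, 104 and 107 in IP and 311, 274 and 296 in input, log2 -1.27 ± 0.19 (SE). It was below its inputs in every IP library. Tpi1, triose phosphate isomerase, was enriched, with 12913, 7684 and 13611 in IP and 3882, 4457 and 4702 in input, log2 1.35 ± 0.20 (SE).

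Several lists of spermatid genes were enriched in more members than the 15.8% of all genes. Protamines, transition proteins and spermatid histones, which replace histones as the sperm head condenses, had 4 of 8 enriched and 1 depleted, with a median of 0.63. Prm2, a protamine, had 259.6, 186 and 566 in IP and 130.4, 120.1 and 112 in input, log2 1.32 ± 0.33 (SE), with IP replicate 3 the highest. H1fnt, a linker histone of spermatids, had 510.2, 694 and 415 in IP and 194, 226 and 212 in input, log2 1.32 ± 0.19 (SE). H2afb1, an X-linked short histone variant, had 203, 166 and 175 in IP and 71.2, 71.1 and 62.1 in input, log2 1.40 ± 0.18 (SE). IP libraries of all 3 were above their inputs. In whole testis, the cell type that an RNA came from is not known, and no label pairs an IP library with an input by animal.

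The outer dense fibre, fibrous sheath and mitochondrial sheath, the casings of the sperm tail, had 7 of 18 members enriched and 0 depleted, with a median of 0.52, which was 0.32 without HET IP replicate 2. At an unadjusted p under 0.05, and by edgeR and DESeq2, 1 member was depleted. Smcp, a cysteine-rich protein of the mitochondrial sheath, had 280.4, 249 and 314 in IP and 90.1, 135 and 140.2 in input, log2 1.22 ± 0.20 (SE). Its IP libraries were all above its inputs. CatSper subunits form the channel that lets calcium into the tail. With other sperm ion transporters they had 7 of 13 enriched and 0 depleted, with a median of 0.52. Counts were the same by limma, edgeR, DESeq2 and at an unadjusted p under 0.05. Catsperb, an accessory subunit, had 189, 248 and 205 in IP and 104, 92.4 and 114 in input, log2 1.04 ± 0.18 (SE). It too was enriched without overlap. Spermatid transcription regulators had 6 of 14 enriched and 1 depleted, with a median of 0.43. The depleted one, Tcfl5, a testis helix-loop-helix factor, had 373, 384 and 746 in IP and 1233, 1509 and 1142 in input, log2 -1.44 ± 0.25 (SE). Each of these medians stayed above 0 under library-size scaling, at 0.43, 0.42 and 0.33 in this order.

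Other lists of sperm genes had medians nearer 0. Their counts stand against 15.8% enriched and 16.7% depleted of all genes. Acrosome and sperm-egg genes had 2 of 23 enriched and 1 depleted (3 and 0 with DESeq2), with a median of 0.12, which was 0.40 without HET IP replicate 1 and -0.02 without HET IP replicate 2. Acr, the acrosomal protease, had 2627, 3638 and 3692 in IP and 1814, 1938 and 1947 in input, log2 0.79 ± 0.15 (SE). Axoneme genes, for the beating core of the tail, had 5 of 25 enriched and 6 depleted, with a median of -0.06. Hydin, of the central pair of microtubules, had 65.6, 114 and 97.4 in IP and 46.6, 36.0 and 47.0 in input, log2 1.05 ± 0.25 (SE). Acr and Hydin were both enriched without overlap. Genes named Spata had 7 of 20 enriched and 2 depleted, and genes named Tex 7 of 19 enriched and 4 depleted, with medians of 0.18 and -0.15. Without HET IP replicate 1 the medians of Spata, Tex and axoneme genes were 0.40, 0.24 and 0.08. Spata5, an ATPase, had 70.1, 49.0 and 52.7 in IP and 151, 137 and 139 in input, log2 -1.31 ± 0.20 (SE). Tex261 had 131, 128 and 108 in IP and 301, 475 and 473 in input, log2 -1.73 ± 0.20 (SE). Both were depleted without overlap. Tex21 had 179, 217 and 209 in IP and 60.1, 85.9 and 94.0 in input, log2 1.34 ± 0.21 (SE). Genes of each name were called in both directions, as was the full set of genes tested.

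Lists of earlier germ cell stages and of general machinery followed, against the same 15.8% and 16.7% of all genes. Meiosis genes had 1 of 25 enriched and 4 depleted (2 depleted with edgeR and with DESeq2) with a median of 0.05, which was -0.04 under library-size scaling. Genes of the piRNA pathway and germ granule, which guard the genome against transposons, had 2 of 16 enriched and 4 depleted with a median of -0.23, or -0.03 without HET IP replicate 1. Testis serine kinases and protein kinase A had 2 of 14 enriched and 2 depleted. Tssk3, a spermatid kinase, had 803, 883 and 783 in IP and 442, 479 and 460.4 in input, log2 0.84 ± 0.13 (SE). It was enriched in every IP library. Kinesins and tubulins had 6 of 18 depleted and 1 enriched (3 enriched with edgeR and with DESeq2), with a median of -0.26. Tuba4a, an alpha tubulin, had 192, 131 and 132 in IP and 333, 315 and 276 in input, log2 -1.03 ± 0.19 (SE). It was depleted in every IP library. Core histones had 2 of 8 depleted and 0 enriched, also with edgeR, DESeq2 and at an unadjusted p under 0.05. H3f3b, for the replacement histone H3.3, had 1581, 1621 and 2109 in IP and 3162, 3484 and 3365 in input, log2 -0.93 ± 0.14 (SE). All its inputs were above its IP libraries. Splicing factors had 9 of 44 enriched and 6 depleted with a median of 0.11. Sf3a2, of the U2 particle, had 74.6, 81.0 and 66.1 in IP and 204, 178 and 173 in input, log2 -1.31 ± 0.18 (SE).

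**Figure D3:**
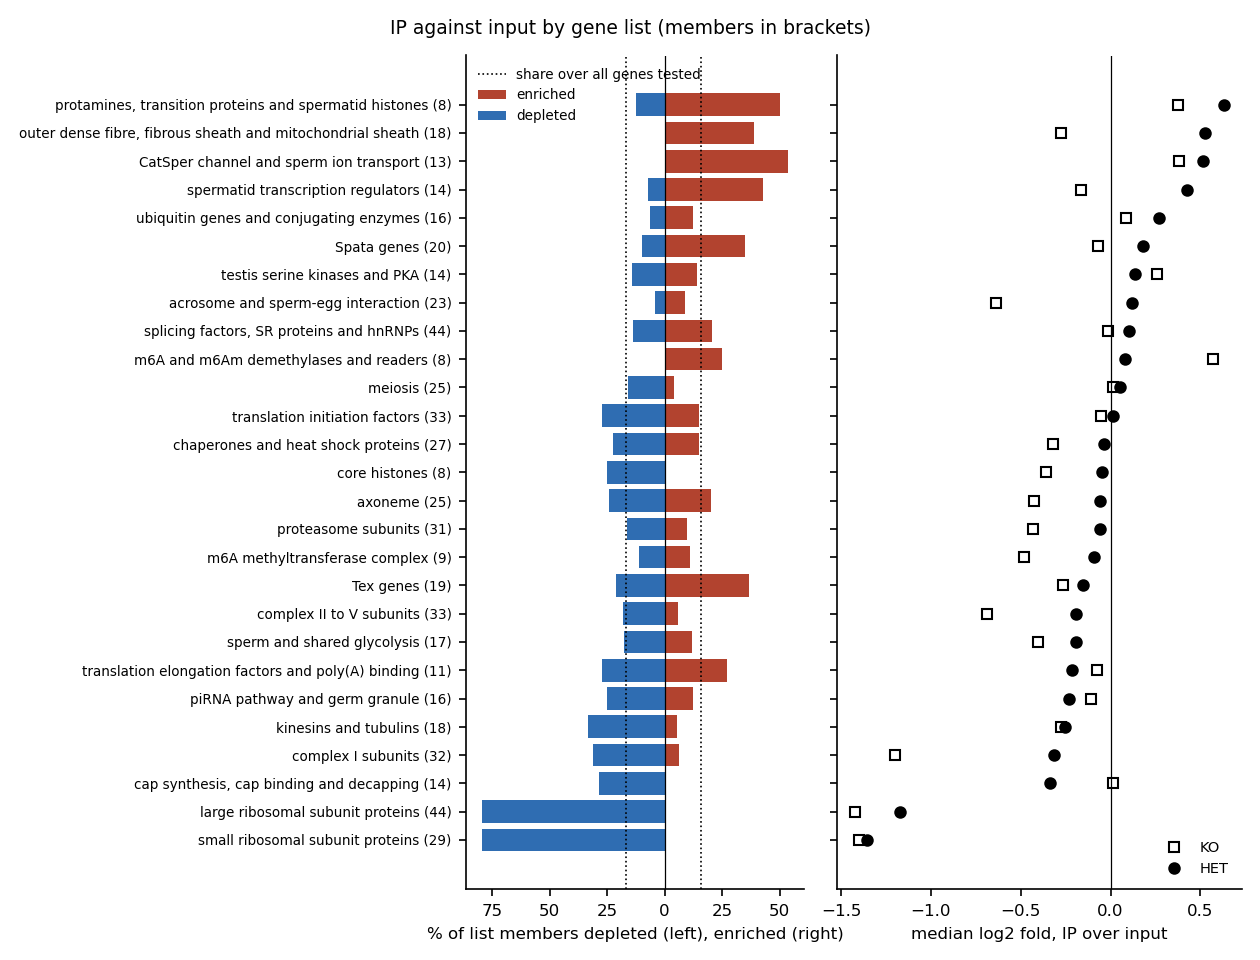
Left, share of each list's members enriched (red, to the right) and depleted (blue, to the left) in HET IP against input, with dotted lines at the 15.8% and 16.7% of all genes tested. Right, median log2 fold of the same members in KO testes (open squares) and HET testes (filled circles). Both ribosomal lists lie far to the left in each genotype. Complex I lies at -1.20 in KO and -0.32 in HET, and complexes II to V at -0.69 and -0.19.

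Genes that write, erase and read the marks or handle the cap were examined as members too, against the 15.8% enriched and 16.7% depleted of all genes. Of 9 members of the m6A methyltransferase complex 1 was enriched and 1 depleted (2 depleted at an unadjusted p under 0.05). Of 8 demethylases and readers 2 were enriched and 0 depleted, also with edgeR, DESeq2 and at an unadjusted p under 0.05. Fto, a demethylase of m6A and m6Am, had 1053, 985 and 943 in IP and 399, 448 and 423 in input, log2 1.23 ± 0.13 (SE), adjusted p = 0.000136 by limma, with all IP libraries above all inputs. Ythdc1, a nuclear m6A reader, had 436, 249 and 327 in IP and 266, 204 and 255 in input, log2 0.45 ± 0.21 (SE), and did not pass (adjusted p = 0.126). It passed without HET IP replicate 2, at log2 0.65. Genes for making, binding and removing the cap had 4 of 14 depleted and 0 enriched by limma, edgeR, DESeq2 and at an unadjusted p under 0.05 alike, with a median of -0.34. Ncbp1, the large subunit of the nuclear cap binding complex, had 29.8, 30.0 and 26.8 in IP and 114, 102 and 115 in input, log2 -1.89 ± 0.20 (SE). Eif4e2, a cap binding repressor of translation, had 295, 212 and 323 in IP and 567, 599 and 585 in input, log2 -1.10 ± 0.17 (SE). IP libraries of both cap genes were below their inputs.

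Of the 10 genes of highest signal 4 were enriched, 2 depleted and 4 not called. The depleted ones are listed as miRNA genes in the table. Gm23935 had 5936, 3379.6 and 3889.8 in IP and 60035, 50163 and 50718 in input, log2 -3.64 ± 0.20 (SE). Mir6236 had 14707, 7898 and 8147 in IP and 46243, 38668 and 38145 in input, log2 -2.06 ± 0.22 (SE). Inputs of both were above every IP library. Gstm5, a glutathione transferase, had 81947, 52191 and 77911 in IP and 28751, 31939 and 32513 in input, log2 1.16 ± 0.18 (SE). Pcbp2, a poly(C) binding protein, had 25634, 32755 and 26557 in IP and 16861, 12604 and 14683 in input, log2 0.95 ± 0.16 (SE). Morf4l1, a chromatin reader, had 51075, 95751 and 73377 in IP and 56050.0, 60330.0 and 64132 in input, and the libraries overlapped. Its log2 fold was 0.24 ± 0.21 (SE), adjusted p = 0.395 by limma, and without HET IP replicate 1 it was 0.48 and passed at 0.032.

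The first transcribed base was compared next, as m6Am needs an A there. A RefSeq start was matched to 8345 members (73.29%), of which 6575 had exactly 1 start. Of these, 1930 started with A, 965 with C, 3115 with G and 565 with T. Genes starting with A were enriched in 402 cases (20.8%) and depleted in 243 (12.6%), against 600 (12.9%) and 860 (18.5%) of 4645 genes with another start. C, G and T starts had similar shares, with 12.3%, 13.1% and 12.7% enriched. The median log2 fold was 0.15 for A and -0.04 for other starts. Among enriched genes with 1 start 40.1% had an A, against 22.0% of depleted and 28.7% of genes not called, so most of the enriched genes had another annotated base.

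The difference was present in each IP library. Set against the mean input, the median of A starts exceeded that of other starts by 0.13, 0.05 and 0.05 log2 units in the KO IP libraries, and by 0.18, 0.24 and 0.18 in the HET IP libraries. Single inputs gave between -0.01 and 0.02. Over all genes with 1 start, the HET libraries thus lay above the KO libraries without overlap. Each input was part of the mean it was set against, which holds its gap near 0. The inputs therefore give no measure against which to read the KO gap. By depth, A starts were enriched in 9.49%, 17.9% and 35.3% of genes in the groups of few, middling and many reads, against 6.16%, 10.3% and 21.3% of other starts. An A preceded by C, the usual initiator letters, was enriched in 20.4% of 1283 genes and an A with another base before it in 21.6% of 647. The letters GGACT, a core m6A motif, searched on the gene's strand in the first 50 transcribed bases, are in 5.85% of the table's genes with 1 start. With them 16.1% of 323 members were enriched, and without them 15.2% of 6252.

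Base composition near the start went with enrichment as well. Genes were put in 4 bins by the GC content of the first 50 transcribed bases. In the bin of 24 to 58% GC, 25.3% of 1941 genes were enriched and 9.69% depleted, with a median of 0.31. Shares enriched were 13.8% at 60 to 66% GC and 10.0% at 68 to 72%. At 74 to 94% GC, 8.70% of 1575 genes were enriched and 23.1% depleted, with a median of -0.16. The median of the low-GC bin minus that of the high-GC bin was 0.15, 0.04 and -0.09 log2 units in the KO IP libraries and 0.42, 0.57 and 0.51 in the HET IP libraries. KO shares enriched were 21.8%, 19.7%, 20.6% and 22.6% over the 4 bins from low to high GC. The gradient of HET libraries was larger than that of any KO library, and among protein-coding genes alone it was 0.36, 0.48 and 0.42 in HET.

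Start base and composition were also read together. In the low-GC bin 31.9% of 759 A starts and 21.2% of 1182 other starts were enriched, with medians of 0.47 and 0.21. The gap between them was 0.15, 0.21 and 0.15 in the KO IP libraries and 0.17, 0.29 and 0.25 in the HET IP libraries. In this bin the genotypes overlapped. In the remaining bins the gap of medians was 0.05, 0.03 and 0.10 in HET, from lower to higher GC, and it was not above 0 in each HET IP library in the bins of 60 to 66% and 68 to 72%. Among low-GC starts the gap was above 0 in all 6 IP libraries. Reads fall on annotated genes as a whole, and the start used in testis may be another than RefSeq's, which was not tested.

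**Figure D4:**
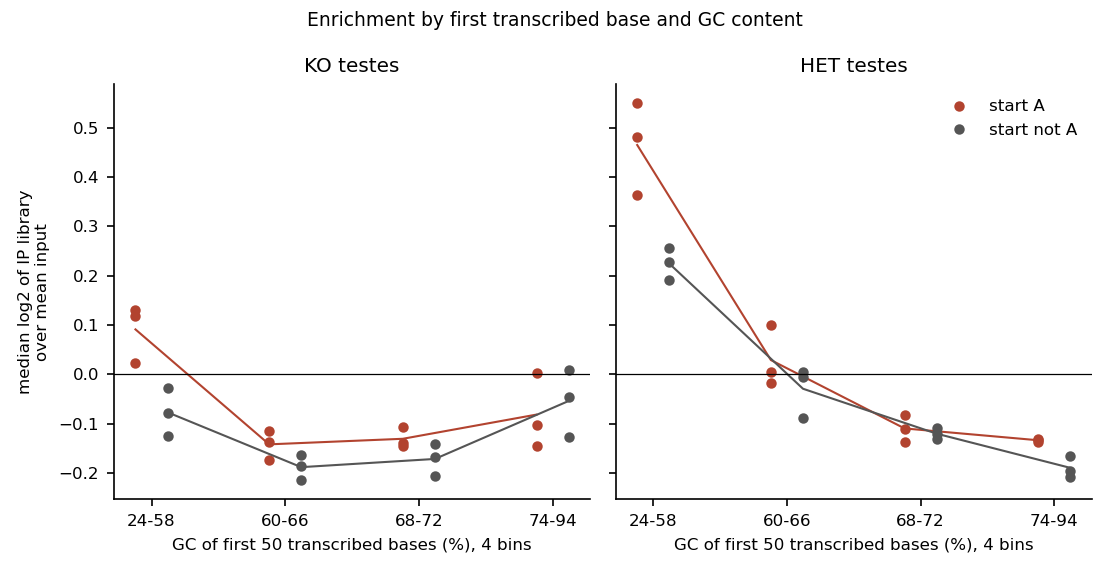
Median log2 of each IP library over the mean input of its genotype (points, 1 per library, lines through their means) in 4 bins of GC content of the first 50 transcribed bases, for starts with A (red) and other starts (grey), KO testes on the left and HET testes on the right. In HET the low-GC A starts lie between 0.36 and 0.55 and the high-GC starts below 0, while the KO points lie between -0.21 and 0.13.

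Shares also differed between gene classes. Of 428 lincRNAs 134 (31.3%) were enriched and 17 (3.97%) depleted, with a median of 0.53, against 14.1%, 17.0% and -0.02 in 9536 protein-coding genes. Antisense genes had 85 of 334 enriched (25.4%) and a median of 0.42. Reads of an antisense gene and its partner cannot be told apart here, as the use of strand in counting is not given in the sources used here. Unprocessed pseudogenes, copies made by duplication, had 42 of 81 enriched (51.9%) and a median of 0.98, and share reads with their parents. The lincRNA median over the mean input was 0.30, 0.10 and 0.05 in the KO IP libraries and 0.39, 0.67 and 0.60 in the HET IP libraries, without overlap. Of lincRNAs with 1 annotated start, 74.9% lay in the low-GC bin, against 26.5% of protein-coding genes.

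X-linked genes were enriched in 121 of 387 cases (31.3%) and depleted in 25 (6.46%), against 15.1% and 17.1% of 10894 autosomal genes. Among protein-coding genes alone, 74 of 294 on X (25.2%) were enriched and 17 depleted, with a median of 0.41, against 13.7%, 17.4% and -0.04 on autosomes. The gap of these medians was 0.32, 0.49 and 0.28 in the KO IP libraries and 0.42, 0.45 and 0.46 in the HET IP libraries. KO and HET overlapped here. Y-linked genes, many in near-identical copies, had 17 of 41 enriched and a median of 0.83. Low GC was also more common on X, at 51.7% of protein-coding genes with 1 start against 25.4% on autosomes. Within the low-GC bin protein-coding X genes had 34 of 106 enriched (32.1%) and a median of 0.68, and autosomal ones 324 of 1469 (22.1%) and a median of 0.19.

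These classes differ in level as well. Restricted to genes with a mean signal of at least 50 over the 6 libraries, a restriction chosen after the data were seen, 63 of 132 lincRNAs (47.7%) and 45 of 103 protein-coding X genes (43.7%) were enriched, against 19.0% of 5707 protein-coding autosomal genes. Start A and the low-GC bin likewise had 28.6% and 35.4% enriched, against 17.2% of other starts and 12.1% of the high-GC bin. Cell type markers were counted too, against 15.8% enriched and 16.7% depleted of all genes. Round spermatid markers had 5 of 10 enriched and elongating spermatid markers 5 of 8, with none of either depleted. Of spermatogonia markers 2 of 4 were enriched and 0 depleted, of spermatocyte markers 1 of 9 and 3, of the 6 Sertoli cell and 3 Leydig cell markers none either way, and the 1 epididymis marker tested was enriched. The part of cell type in these classes was not tested.

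**Figure D5:**
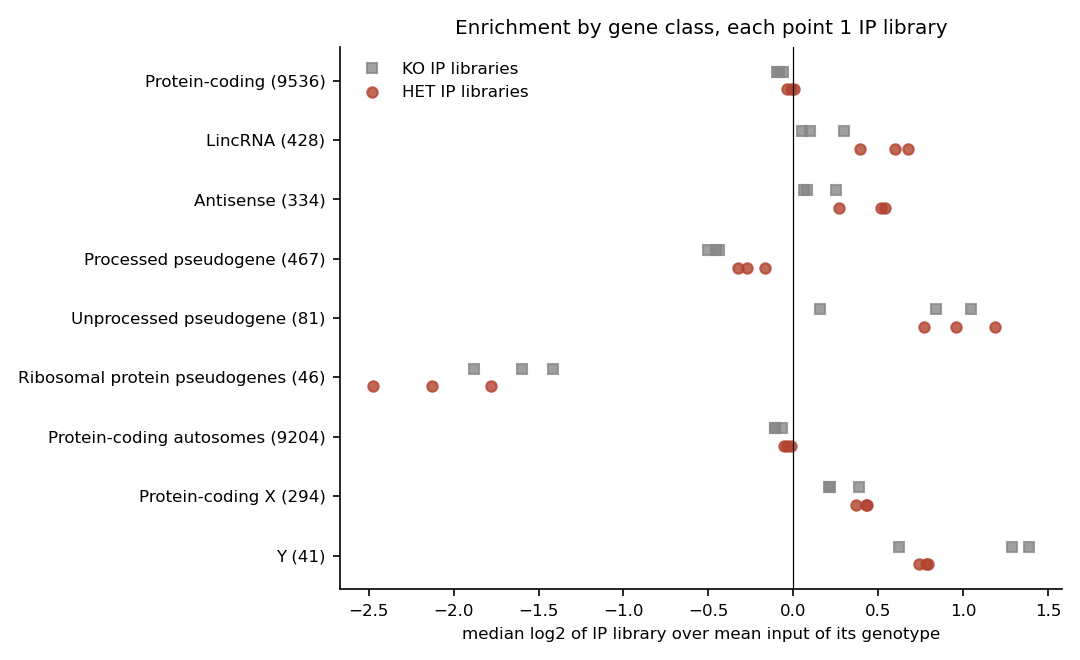
Median log2 of each IP library over the mean input of its genotype, by gene class, with KO IP libraries as grey squares and HET IP libraries as red circles, and gene numbers in brackets. LincRNAs lie between 0.05 and 0.30 in KO and between 0.39 and 0.67 in HET, and ribosomal protein pseudogenes lie below -1.4 in every library.

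The same comparison was made in the KO testes. There 2420 of the 11386 genes (21.3%) were enriched and 2690 (23.6%) depleted. Of the 1802 genes enriched in HET, 1058 (58.7%) were also enriched in KO, 73 were depleted and 671 were not called, with a median log2 fold of 0.77 in KO against 0.93 in HET. Of the 1897 depleted in HET, 1258 (66.3%) were depleted in KO and 7 were enriched, with a median of -0.99 in KO against -1.09 in HET. Across genes the log2 folds of both genotypes correlated at 0.62 (Pearson), a description over genes that share libraries and are not independent. Medians in HET come from genes chosen there, so a smaller value in KO is not by itself a difference.

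Tested directly, the KO minus HET difference passed in 475 genes (4.17%) with a higher and 811 (7.12%) with a lower enrichment in KO. These counts fell without single libraries, to 158 and 424 without KO input replicate 2, and they were 206 and 448 without HET input replicate 1. They were 216 and 479 without HET input replicate 2, 221 and 493 without HET input replicate 3, and 229 and 499 without KO input replicate 3. Without KO input replicate 1 the lower ones numbered 531, and without HET IP replicate 1 the higher ones numbered 729. Among A starts 182 of 1930 (9.43%) were lower in KO and 61 (3.16%) higher, against 316 (6.80%) and 217 (4.67%) of other starts. In the low-GC bin as a whole 9.94% were lower and 1.85% higher. There 12.3% of A starts and 8.46% of other starts were lower in KO. In the remaining bins, from lower to higher GC, these shares were 9.14%, 6.59% and 6.06% of A starts. Other starts had 8.20%, 5.49% and 4.93%. The part of base composition in this difference was not tested.

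Fscb and Spa17 were enriched in KO as well. Fscb had 567, 654 and 376 in KO IP and 60.3, 57.7 and 67.1 in KO input, log2 3.05 ± 0.21 (SE). Spa17 had 4233, 4264 and 3208 in KO IP and 958, 931 and 883 in KO input, log2 2.07 ± 0.13 (SE). The KO minus HET difference passed for neither by limma (adjusted p = 0.237 and 0.285). Cdyl was enriched in HET and not in KO, with 433, 458 and 268 in KO IP and 326, 325 and 331 in KO input, log2 0.20 ± 0.19 (SE). Its difference was -1.38 ± 0.28 (SE), adjusted p = 0.00664 by limma, and it passed without each of the 12 libraries in turn. Rnf133, a ubiquitin ligase of spermatids, had 77.8, 66.1 and 36.0 in KO IP and 130.3, 128 and 133 in KO input, against 442, 293 and 396 in HET IP and 150.2, 152 and 174 in HET input. It was enriched in HET at log2 1.22 ± 0.18 (SE) and depleted in KO at -1.18 ± 0.27 (SE), a difference of -2.40 ± 0.34 (SE), adjusted p = 0.000793 by limma.

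Nusap1, a spindle protein, had 22.5, 48.4 and 48.7 in KO IP and 79.8, 54.0 and 76.1 in KO input, against 146, 215 and 179 in HET IP and 54.5, 80.4 and 75.7 in HET input, a difference of -2.20 ± 0.41 (SE), adjusted p = 0.00416 by limma. Catsperb had 95.8, 72.7 and 55.0 in KO IP and 83.3, 92.2 and 103 in KO input, with a difference of -1.38 ± 0.30 (SE). Uqcrb had 301, 392 and 287 in KO IP and 420.0, 390.0 and 389 in KO input, with a difference of -1.38 ± 0.24 (SE). All 3 were enriched in HET and not in KO. Some genes depleted in HET were more depleted in KO. Ccdc150 had 15.0, 2.20 and 8.11 in KO IP and 136, 92.2 and 117 in KO input, against 47.7, 62.7 and 73.3 in HET IP and 143, 179 and 143 in HET input, a difference of -2.55 ± 0.58 (SE), adjusted p = 0.013 by limma.

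Of all genes, 7.12% were lower and 4.17% higher in KO. Complex I had 9 of 32 members lower and 0 higher (17 and 0 at an unadjusted p under 0.05). Its median was -1.20 in KO against -0.32 in HET. Ndufs4, an electron transfer module subunit, had 61.4, 55.1 and 47.8 in KO IP and 439, 444 and 428 in KO input, against 151, 227 and 279.6 in HET IP and 412, 521 and 515 in HET input, a difference of -1.81 ± 0.28 (SE), adjusted p = 0.00149 by limma. Acrosome genes had 9 of 23 lower and 1 higher, with a median of -0.64 in KO against 0.12 in HET. Sperm tail casings had 6 of 18 lower and 0 higher (11 and 0 at an unadjusted p under 0.05), with -0.27 in KO against 0.52 in HET. The shift was not particular to these lists. Complexes II to V had 9 of 33 lower and 1 higher, with a median of -0.69 in KO against -0.19 in HET. Proteasome subunits had 6 of 31 lower and 1 higher, and chaperones 6 of 27 lower and 0 higher. In the other direction, Eif3b had 362, 322 and 280.2 in KO IP and 408, 347 and 349 in KO input, a difference of 1.10 ± 0.23 (SE), adjusted p = 0.00861 by limma, so that its depletion in HET was not seen in KO. Ribosomal proteins had 7 of 73 lower and 5 higher, shares of the same order as those of all genes.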

How the data were processed

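The authors deposited 1 table of the testes m6Am-Exo-Seq libraries, a column for each. Per the values, the authors scaled the read number of every gene by a library-specific factor before deposit, which gives the signal used here. All values were whole multiples of 1 read within a tolerance of 0.01, so whole reads could be recovered. Tools listed in the submitters' processing notes, with no role stated, are STAR, Salmon 0.12.0, DESeq, DESeq2 1.25.10 and R 3.6.2. For build, annotation and strand the sources used here give nothing. The brain footprinting table and the tissue RNA-seq libraries were not used here.

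Genes reaching a signal of 10 in 3 or more of the 6 HET libraries were tested with limma 3.58.1 (trend) in R 4.3.3 on log2(signal + 1), which understates the change of low genes, with Benjamini-Hochberg adjustment at 0.05. The same genes were fitted in the 6 KO libraries, and the KO minus HET difference over 12 libraries. Alternatives were edgeR 4.0.16 and DESeq2 1.42.0 on recovered reads, library-size scaling, pseudocounts of 0.5 and 8, no filter, a filter of 50, 1 model over 12 libraries, and each library left out. The HET fit was also run on simulated data in which IP and input shared the same spread for each gene. In the HET libraries the median SD was 0.33 for IP and 0.17 for input. The simulation thus could not check the effect of this unequal spread.

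Members, 27 gene lists, 10 marker lists and tests were chosen with earlier results of these data known. Named genes were the 15 in each direction with the largest log2 fold among those of mean signal at least 100 without overlap, the 10 of highest signal, up to 3 called members of each list with mean signal at least 50, the genes for marks and cap, and the 5 in each direction that differed most by genotype. Of these, genes that kept their call in all alternatives were described by preference, and 1 is not reported here. RefSeq starts (GRCm38.p6) were matched by symbol, then by a unique synonym, on the same chromosome.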

Additional observations from a re-analysis of the deposited data

Results flagged for a closer look

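Over all 11386 genes, 4.17% were higher and 7.12% lower in KO by limma's interaction test (Benjamini-Hochberg adjusted p below 0.05). The KO minus HET difference in log2 enrichment passed this test in 21 of the 69 genes named in the text. It was negative for Ccdc150 (-2.55), Rnf133 (-2.40), Nusap1 (-2.20), Ndufs4 (-1.81), Tex21 (-1.48), Uqcrb (-1.38), Catsperb (-1.38), Cdyl (-1.38), H3f3b (-1.31), Cct5 (-1.21), Ndufb5 (-0.97), Acr (-0.73) and Psmb4 (-0.55). It was positive for Mir6236 (1.41), Brd7 (1.11), Eif3b (1.10), Scrt1 (1.02), Eef2 (0.95), Ythdc1 (0.94), Atp5a1 (0.92) and Ptms (0.75). Rnf133 was the only 1 of the 21 called in opposite directions, at -1.18 in KO and 1.22 in HET. Leaving out 1 library at a time, 10 of the 21 lost the call in at least 1 case, Mir6236, Scrt1, Ptms, Brd7, Ythdc1, Eef2, Ndufb5, Atp5a1, Psmb4 and Acr, with a highest adjusted p of 0.12 by limma. The other 11 passed in all 12 cases, with a highest adjusted p of 0.0398.

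By value, Cct5, a chaperonin subunit, had signals of 79.3, 104 and 104 in KO IP and 785, 859 and 906 in KO input. Against these stood 199.9, 243 and 195 in HET IP and 830.1, 803 and 809 in HET input, so the inputs overlapped and the IP was lower in KO. H3f3b had 573, 758 and 796 in KO IP and 3548, 3094 and 3272 in KO input. Tex21 had 61.4, 50.7 and 49.6 in KO IP and 63.8, 46.5 and 68.7 in KO input, and was enriched in HET and not called in KO. The 21 genes were named for their HET values, their level or for their lists, and 4 of them (Rnf133, Nusap1, Ccdc150 and Ndufs4) for this difference itself. The HET libraries used in naming also enter the difference. The share among named genes is therefore not comparable with that of all genes.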

How the results depend on the processing

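No paired analysis was possible because the labels carry no replicate numbers. Of the alternatives that kept all libraries, none run moved a count by over 1.5 times: 8 were run for HET, 4 for KO (edgeR, library-size scaling and both pseudocounts) and 1 for the difference (library-size scaling). In HET, edgeR gave 1904 enriched and 1949 depleted, DESeq2 1803 and 1823, library-size scaling 1434 and 2267, no filter 1636 and 1848, and a filter of 50 gave 1467 and 1407. Calls shared with the same direction were 98.6% of the 3699 with edgeR, 93.6% with DESeq2 and 90.1% with library-size scaling. With 1 library left out, which leaves 2 of its kind, HET calls ran between 2235 and 4409 (1065 to 2129 enriched, 1152 to 2280 depleted), and the difference between genotypes between 582 and 1766 (158 to 729 higher, 424 to 1037 lower in KO). KO calls ran between 3713 and 5211. The gap of A starts over other starts was 0.19 and ran between 0.18 and 0.21, and was 0.15 among protein-coding genes alone. It was 0.16 with a pseudocount of 8. Of the 69 genes named, none that was called lost its call in HET, a choice made in naming them. Morf4l1 and Ythdc1 gained one without 1 library. List counts moved by over 1.5 times for depleted meiosis genes (2 with edgeR and with DESeq2, 4 with limma) and enriched kinesins and tubulins (3 with each, 1 with limma), and the 1 depleted acrosome gene was not called by DESeq2. Library-size scaling turned the medians of initiation factors, meiosis genes and readers to -0.08, -0.04 and -0.01. Depth limits the genes with the fewest reads, where the median SE was 0.37.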
